A study of Mus musculus with 6 samples.

Results

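The Fos and Jun genes encode the core subunits of the transcription factor AP-1. They were followed here in NIH3T3 cells, a mouse embryonic fibroblast line of NIH Swiss origin, with and without a transgene for human FEAT. All probes that the platform annotation gives the symbols Fos, Fosb, Fosl1, Fosl2, Jun, Junb or Jund were taken, which gave 9 of the 45281 probes of the array for 6 of the 7 genes. No probe carried the symbol Fosl1, so Fosl1 was not analysed here. Human FEAT was present in 3 clones, FEAT 3, FEAT 15 and FEAT 20, as cDNA of the gene also known as METTL13, under the elongation factor 1 alpha promoter. They came through 7 days in blasticidin S at 10 µg/ml and were screened for clones rich in FEAT protein. The 3 empty-vector clones, called control 1, control 2 and control 3, held the pEF-DEST51 vector lacking ccdB and no FEAT insert, and their selection is not given in the sources used here. Each clone is a separate stable line that came from transfected NIH3T3 cells, so differences between clones include those of single lines, and p-values measure the spread over 3 lines a group with 1 array each. The family was chosen on the level of Junb, known from earlier work on these arrays to be higher in the FEAT clones. The differences of its members are therefore given as a description, and the calls of the fit are printed without being read as support.

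AP-1 is a dimer of basic leucine zipper proteins. Jun proteins can pair with themselves or with Fos proteins, whereas Fos proteins need a Jun partner to bind DNA. Many members are early response genes that serum and growth factors induce in quiescent fibroblasts within minutes, while Jund is known for a steadier level. The RNAs of Fos and Fosb are short-lived, and Fosl2, also called Fra-2, usually follows later.

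Junb, a Jun protein that can replace or oppose Jun depending on the promoter, had the largest difference of the family. On its bright probe the intensity was 835, 877 and 780 in control 1, control 2 and control 3, and 1979, 1871 and 1759 in FEAT 3, FEAT 15 and FEAT 20. The groups did not overlap, and FEAT 3 was the highest clone. The means were 831 ± 48.2 and 1870 ± 110 (SD, n = 3 each), and the normalized log2 difference, FEAT minus control, was 1.15 (SE 0.16, limma). In bulk RNA, fewer cells with a transcript and less of it per cell cannot be told apart. From the largest rise downwards, Junb ranked 29 among the 13315 genes tested. Its other probe, annotated to another cDNA, read 68.1 to 87.2 in control and 78.1 to 82.7 in FEAT clones, was not above the background limit of any array, and was too dim to be tested. The limit was set for each array from the spread of its dim probes and lay between 96.3 and 102 on the intensity scale.

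Jun, the founding member and the main target of the JNK kinases, read 699, 672 and 709 in the control clones and 1031, 1079 and 1287 in FEAT 3, FEAT 15 and FEAT 20. All 3 FEAT clones lay above all 3 control clones, with FEAT 20 the highest. The control clones were close together, with a mean of 693 ± 19.2, against 1132 ± 136 in the FEAT clones (SD, n = 3 each). The log2 difference was 0.68 (SE 0.13).

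Jund, the Jun protein often described as the steady partner, gave overlapping groups. Its intensity was 266, 230 and 187 in control 1, control 2 and control 3, and 212, 202 and 362 in FEAT 3, FEAT 15 and FEAT 20. FEAT 20 stood above every other clone, and the remaining FEAT clones lay inside the control range as deposited. After normalization FEAT 15 lay just below the lowest control, at 7.23 against 7.26 in control 3 on the log2 scale. The log2 difference of 0.13 (SE 0.22) was smaller than its error, and it was -0.12 without FEAT 20 and -0.0071 without control 3.

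Fosl2 had the largest difference among the Fos genes. Its brightest probe read 1175, 1469 and 1157 in the control clones and 2194, 2372 and 2566 in FEAT 3, FEAT 15 and FEAT 20. The groups did not overlap, and control 2 was the highest control. The means were 1267 ± 175 and 2377 ± 186 (SD, n = 3 each), with a log2 difference of 0.88 (SE 0.15), which ranked 63 among the 13315 genes. The other probes of Fosl2, annotated to the same transcript, did not show it. They read between 78.6 and 99.7 over the 6 clones, above the background limit on 1 control array each and on 0 FEAT arrays, so they give no level in the FEAT clones.

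Fos, the classic serum-induced member, was dim but above the background limit on all 6 arrays. Its intensity was 169, 141 and 149 in the control clones and 148, 185 and 226 in FEAT 3, FEAT 15 and FEAT 20. As deposited, FEAT 3 fell inside the control range. After normalization it lay above the highest control by 0.023 on the log2 scale, and with median scaling it lay inside the range again (-0.14). The log2 difference was 0.31 (SE 0.15), and 0.18 without FEAT 20. Fosb, its close relative, overlapped fully, at 130, 180 and 193 in control 1, control 2 and control 3 and 130, 178 and 165 in FEAT 3, FEAT 15 and FEAT 20. Its log2 difference was -0.14 (SE 0.22), and 0.038 without control 3.

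**Figure D1:**
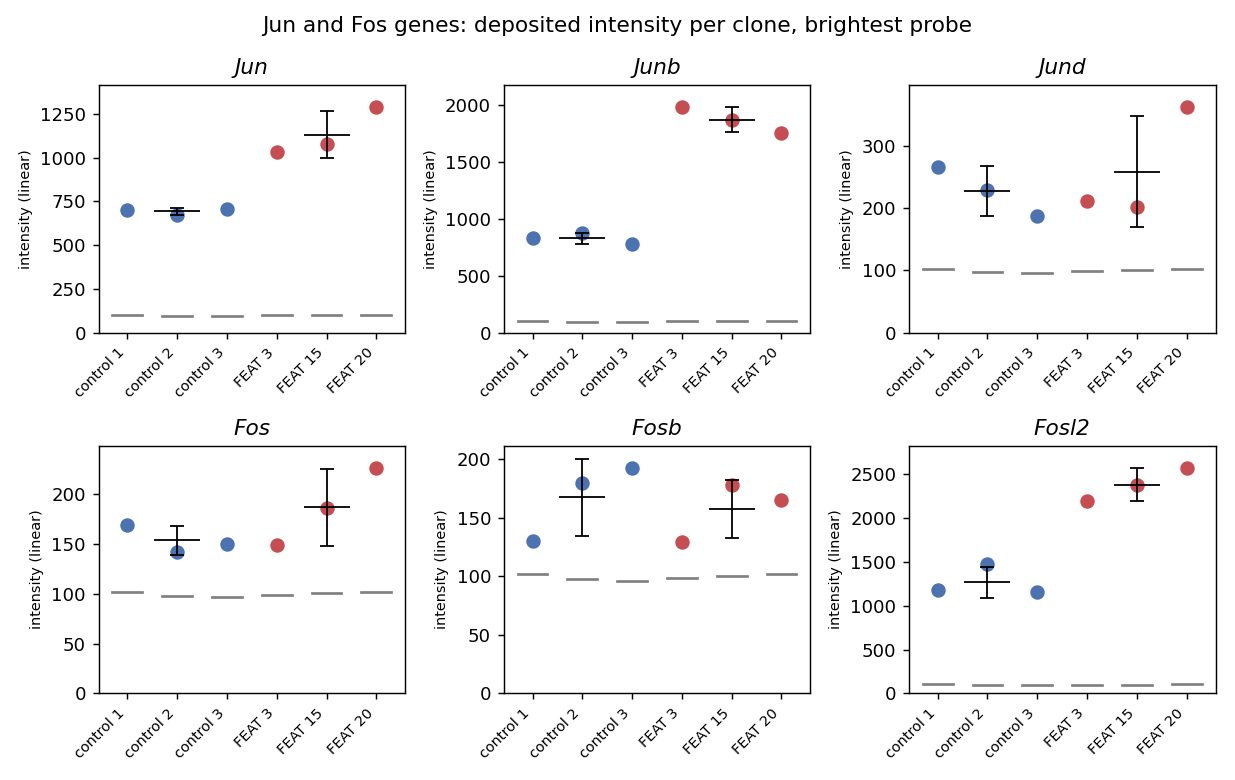
Deposited intensity (linear axis from 0) of the brightest probe of each gene in each of the 6 clones, control in blue and FEAT in red. Black bars are the mean and SD of 3 clones, and grey ticks mark each array's background limit; Junb, Jun and Fosl2 are higher in all 3 FEAT clones, while Jund, Fos and Fosb overlap on this scale.

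Of the 8 member probes tested, 1 passed an adjusted p of 0.05 in the fit over all probes, the bright probe of Junb, where 0.184% of all 27169 probes passed in either direction. Among the 6 member genes, each by its brightest probe, 4 had normalized groups that did not overlap with the FEAT clones higher (Junb, Fosl2, Jun and, narrowly, Fos), where 7.95% of all 13315 genes tested did. The median log2 difference of the 6 genes was 0.49, and that of all genes tested was 0.0071. The gap between the lowest FEAT clone and the highest control clone was 0.79 for Junb, 0.52 for Fosl2 and 0.44 for Jun on the normalized log2 scale. These gaps stayed above 0 under every scaling tried for these 3 genes. Counting the deposited value table, which repeats the setting without normexp, the call of Junb was kept in 8 of 8 scaling, filter and variance settings. It was lost in 4 of 6 omissions of a clone, with log2 differences of 1.11 without control 1, 1.12 without control 3, 1.00 without FEAT 3 and 1.19 without FEAT 15. Fosl2, not called in the fit on all clones, was called with median scaling, with array weights, with a trended variance and without control 2, where its difference was 1.02. Jun was not called in any of these settings or omissions.

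**Figure D2:**
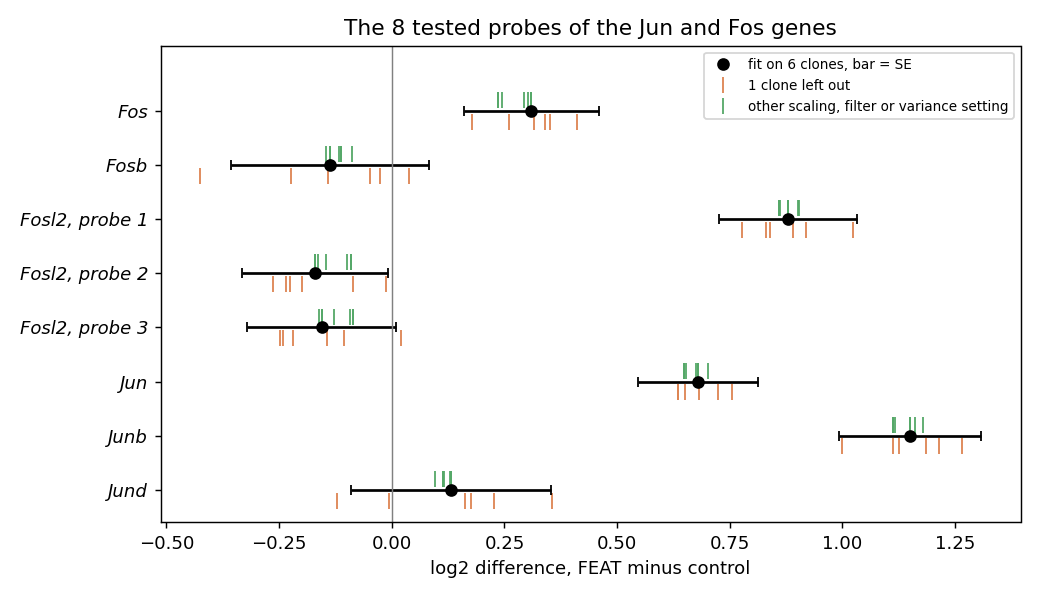
Log2 difference, FEAT minus control, of the 8 tested member probes (black points, bars are SE), with the values after leaving out each clone (orange) and under the other settings (green). The values of Junb, Jun and the brightest Fosl2 probe stay above 0.6, and those of Fosb, Jund and a dim Fosl2 probe fall on both sides of 0.

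The clones did not share 1 profile. Relative to the control mean, Junb was 1.45, 1.08 and 0.92 higher on the log2 scale in FEAT 3, FEAT 15 and FEAT 20. Fos ran the other way, at 0.11, 0.25 and 0.57. Jun was 0.77, 0.53 and 0.74 higher and Fosl2 0.98, 0.80 and 0.86 higher. FEAT 20 was therefore the clone with the smallest Junb difference and the largest Fos and Jund differences, the latter 0.64. Among the control clones, the widest log2 spread was that of Fosb (SD 0.50), with control 1 lowest, and the narrowest that of Jun and Fos (SD 0.089 and 0.091).

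**Figure D3:**
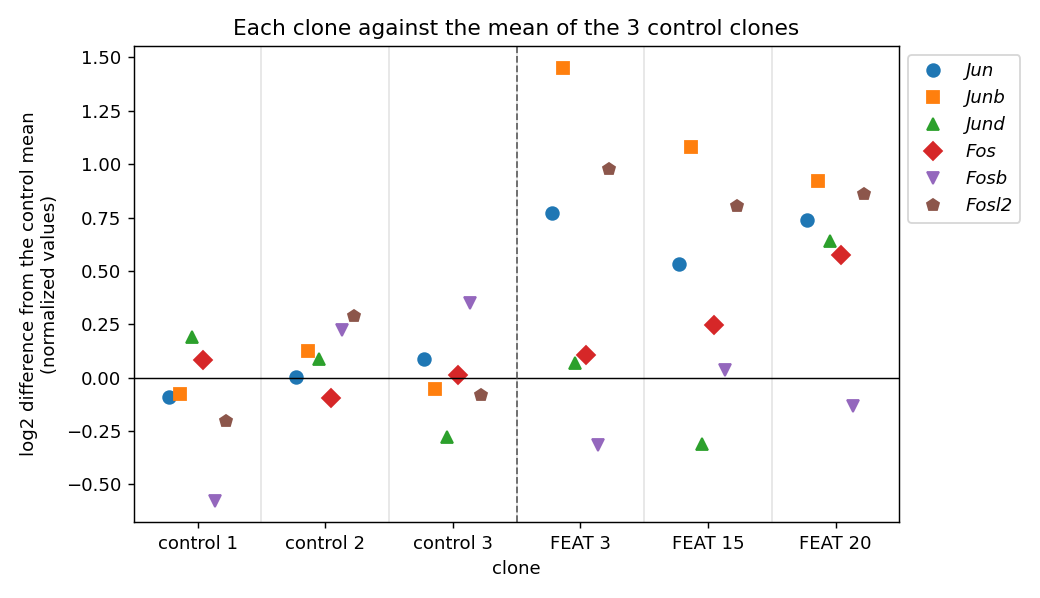
Normalized log2 difference of each clone from the mean of the 3 control clones, for the brightest probe of each gene, with the dashed line between control and FEAT clones. In every FEAT clone Junb lies highest; Fos and Jund lie near the control mean or below it except in FEAT 20, where they reach 0.57 and 0.64, and Fos is 0.25 in FEAT 15.

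Because Junb, Jun and Fosl2 were higher in the same clones, the bases just upstream of their starts are shown, from RefSeq on GRCm38.p6. They cover chr8:84978749-84978998 (minus strand), chr4:95052223-95052472 (minus strand) and chr5:32136222-32136471 (plus strand), each 250 bases that end 1 base before the annotated start. Capitals mark every match, on either strand, to TGACTCA (the classic AP-1 site), TGACGTCA (the cAMP response element), TGACATCA (the variant AP-1 site known from the Jun promoter), the core of the serum response element, TATAAA as in the TATA box, CCAAT, and GGGCGG of the GC box. Positions are counted upstream from the start.
Junb: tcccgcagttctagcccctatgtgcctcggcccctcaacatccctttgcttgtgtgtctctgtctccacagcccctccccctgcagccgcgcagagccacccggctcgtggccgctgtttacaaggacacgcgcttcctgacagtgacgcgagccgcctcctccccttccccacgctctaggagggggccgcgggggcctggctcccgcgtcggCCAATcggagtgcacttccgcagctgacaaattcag
Jun: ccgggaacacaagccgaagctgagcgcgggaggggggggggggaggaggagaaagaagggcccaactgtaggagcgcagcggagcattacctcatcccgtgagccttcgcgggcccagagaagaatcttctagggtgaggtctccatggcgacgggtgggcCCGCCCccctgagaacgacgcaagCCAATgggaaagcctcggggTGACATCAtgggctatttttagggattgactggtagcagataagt
Fosl2: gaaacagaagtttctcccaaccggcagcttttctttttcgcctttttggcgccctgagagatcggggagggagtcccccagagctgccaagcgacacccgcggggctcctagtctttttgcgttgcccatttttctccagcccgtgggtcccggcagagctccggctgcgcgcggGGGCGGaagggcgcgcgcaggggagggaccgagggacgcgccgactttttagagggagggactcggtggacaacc

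Jun alone held TGACATCA, 45 to 38 bases upstream of the start, which 2.93% of 32851 mouse promoter windows of this length held. CCAAT was found 36 to 32 bases upstream in Junb and 65 to 61 bases upstream in Jun, and in 33.8% of all windows. GGGCGG was found in Jun and Fosl2, and in 32.7% of all windows. The classic AP-1 site, the cAMP response element and the serum response element core had 0 matches in the windows of Junb, Jun and Fosl2, and were held by 4.46%, 1.55% and 1.47% of all windows. The window of Fos, not shown, held TATAAA 33 to 28 bases upstream, found in 12.4% of all windows, and 1 GGGCGG, that of Fosb held 3 GGGCGG of which a pair share a base, and that of Jund held none of the motifs. Windows matched the symbols of 6 of the 7 genes, all but Fosl1. A match here is a match of letters, and sites outside the window were not searched.

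Other proteins of the basic leucine zipper class that can join Fos and Jun proteins or bind the same sites had small differences and no calls. Of 16 genes listed, 12 were tested, and 0 passed in limma. At an unadjusted p under 0.05 there were 0 of the 12, and 10.1% of all genes tested, counting both directions. Their median log2 difference was -0.036 and their range -0.22 to 0.13. Batf2, Batf3 and Mafk, counted in these values, were not above background on any array and so give no level. Atf3 was above background on 2 control arrays and 1 FEAT array. Jdp2, a repressor that dimerizes with Jun, read 1162 ± 205 in control and 1040 ± 129 in FEAT clones (SD, n = 3 each), a log2 difference of -0.22 (adjusted p = 0.727). Creb1, which binds the cAMP response element, differed by -0.20 (adjusted p = 0.774), Atf7, a partner of Jun, by 0.13 (adjusted p = 0.812) and Crem, whose brightest probe was above background on 1 array, by 0.12 (adjusted p = 0.849). With 1 clone left out Jdp2 ran from -0.34 to -0.12, Creb1 from -0.36 to -0.085, Atf7 from 0.087 to 0.20 and Crem from -0.00035 to 0.19.

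Genes described as controlled through AP-1 sites went both ways. Of 36 listed, 30 were tested, 15 of them with a positive difference, where 51.6% of all genes had one, and the median was -0.0029. These counts include Mmp10, Mmp13, Fasl, Il6, Lif and Cdkn2a, which were not above background on any array. Ccna2 was above it on 1 FEAT array, and Mmp9 on 1 control array and 1 FEAT array. Fgf7 was the 1 member that passed, and it was higher, where 0.135% of all genes were called higher. At an unadjusted p under 0.05 were 8 of the 30, where 10.1% of all genes were. The list was chosen with earlier results of these data known, so its counts are no independent evidence. Fgf7, the keratinocyte growth factor that fibroblasts make, read 3200.5, 2643 and 1882 in control 1, control 2 and control 3. In FEAT 3, FEAT 15 and FEAT 20 it read 5119, 7752 and 6846. The groups were well apart, and the log2 difference was 1.36 (SE 0.18, limma, adjusted p = 0.0192). The call was lost without control 1 (adjusted p = 0.149), without control 3 (0.0572) and without FEAT 15 (0.0507), and the adjusted p of Fgf7 ranged from 0.00262 to 0.149 over all its alternatives.

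Hbegf, an EGF receptor ligand with an AP-1 site in its promoter, read 515, 462 and 607 in the control clones and 1191, 1092 and 1003 in the FEAT clones (log2 1.07, adjusted p = 0.0534). It was called in 4 of 8 other settings. Its dim probe passed the background limit on 1 FEAT array alone and differed by 0.084. Cxcl1, a neutrophil chemokine, read 1262, 1248 and 1208 in control and 1743, 2080 and 2224 in FEAT clones (log2 0.65, adjusted p = 0.0887), and was also called in 4 of 8 settings. Those of Cxcl1 include no normexp and the deposited value table, which repeat each other. Plau, the urokinase protease, read 297, 255 and 246 in control and 337, 423 and 651 in FEAT clones, with FEAT 20 far above the rest (log2 0.82, adjusted p = 0.146). For Hbegf, Cxcl1 and Plau the groups did not overlap. After normalization the same was true with FEAT higher for 4 of the 30 genes and with FEAT lower for 3, against 7.95% and 7.24% of all genes. The lower ones were Mmp14, Mmp10 and Fasl. Mmp14 overlapped as deposited (4720 in FEAT 20, 4605 in control 2), and Mmp10 and Fasl were not above background on any array. Vegfd, above background on all arrays, had the largest fall of the list (log2 -0.61, limma, adjusted p = 0.486), and its groups overlapped. Chosen after their values were seen, Ccnd1, the cyclin D gene that Jun is known to raise and Junb to restrain, differed by 0.0061, and Mmp13, a classic AP-1 target, was not above background on any array on its brightest probe.

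Upstream of AP-1, kinases and serum response factors gave no calls. Of 30 listed genes 20 were tested, 0 passed in limma and 2 had an unadjusted p under 0.05, a share close to the 10.1% of all genes, with a median log2 difference of 0.035. Map2k6, an activator of p38 kinases, was the widest, at 331, 285 and 393 in control and 163, 268 and 206 in FEAT clones (log2 -0.85, adjusted p = 0.152). All FEAT clones were lower, and the other Map2k6 probes differed by -0.72 and -0.56. Srf, the serum response factor, read 1098 ± 109 and 1480 ± 238 (SD, n = 3 each), a log2 difference of 0.38 (adjusted p = 0.512), with 0.017 on its other probe. Rps6ka5, the kinase MSK1, differed by 0.27 (adjusted p = 0.586), while its other probes were above background on 1 array at most, and Elk1 was not above background on any array. Ligases and cofactors that act on Fos and Jun proteins gave 0 calls among 10 tested of 12 listed, with 0 at an unadjusted p under 0.05 (10.1% of all genes) and a median of -0.086. Among them Itch, a ubiquitin ligase for Jun proteins, differed by -0.25 and the deacetylase Sirt1 by 0.31 (adjusted p = 0.606 and 0.625), and the acetyltransferases Ep300 and Crebbp by -0.27 and -0.31 (adjusted p = 0.704 and 0.718). With 1 clone left out these values ran from 0.18 to 0.49 for Sirt1, -0.42 to -0.14 for Ep300 and -0.55 to -0.14 for Crebbp.

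Other early response genes stood higher than these lists. Of 25 listed, 21 were tested, 16 differed positively, and the median log2 difference was 0.31. After normalization 9 had groups that did not overlap with FEAT higher, against 7.95% of all genes. Klf2, counted among these, overlapped as deposited (3114 in FEAT 3, 3419 in control 1). Ier2, counted among them too, and Nr4a3, counted as positive, stayed under the background limit of each array, so neither gives a level. Higher past the threshold were 3 of the 21, where 0.135% of all genes were, namely Ccn2, Egr1 and Gadd45b. At an unadjusted p under 0.05 there were 9, counting both directions, against 10.1% of all genes. Among these 9, Dusp1 was lower in FEAT clones (mean 7806) than in control clones (10317), with a log2 difference of -0.42. Klf10, also among the 9, was above background on 0 control arrays and 1 FEAT array. This list, too, was drawn up with some of these results known, so its counts are no independent evidence. Egr1, a zinc finger factor induced together with Fos and Junb, read 4444, 4500 and 4972 in control and 8310, 8828 and 11721 in FEAT clones (log2 1.01, adjusted p = 0.0237). It kept its call in 8 of 8 settings and in the omission of control 2, and lost it in the other 5 omissions (adjusted p = 0.0507 to 0.186). Ccn2, a secreted matricellular protein, had a log2 difference of 1.20 (adjusted p = 0.0192) and lost its call without control 1 (0.149) and without FEAT 3 (0.0615). Gadd45b, a stress-response gene, had a log2 difference of 0.83 (adjusted p = 0.0420) and lost its call with all probes tested (0.0515) and in each omission other than that of control 2 (0.0511 to 0.253), and its other probe, at 0.69, did not pass (adjusted p = 0.110). Egr3, at 1.34, did not pass (adjusted p = 0.135). Its other probe differed by -0.11 but was above background on 1 control array and 0 FEAT arrays, so it gives no level in the FEAT clones.

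**Figure D4:**
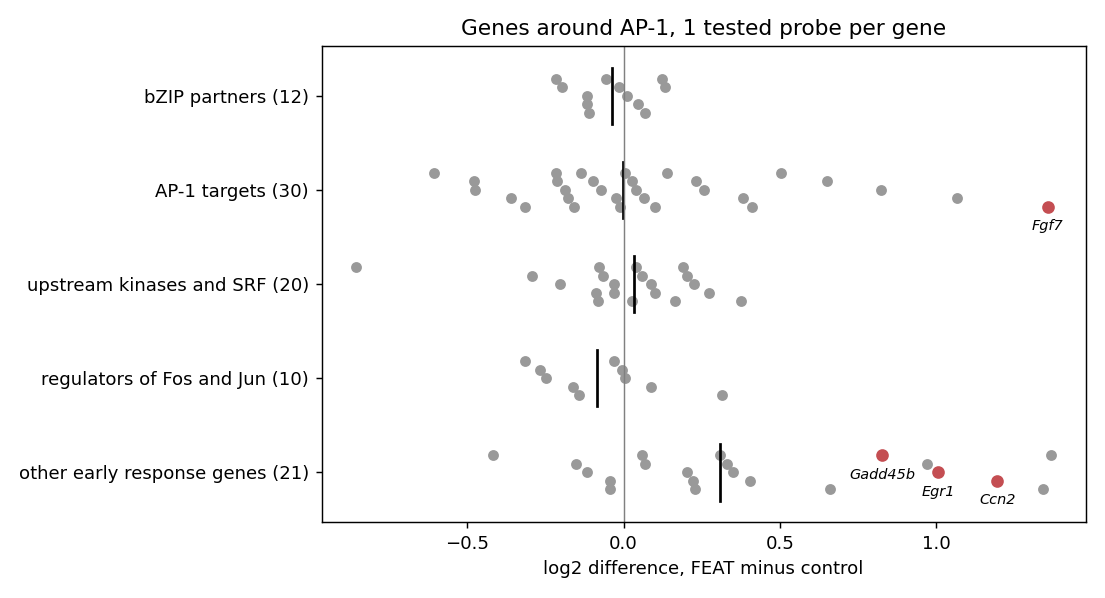
Log2 difference, FEAT minus control, of each tested gene (1 probe per gene) in 5 lists around AP-1, with the number tested in brackets, genes past the threshold in red with their names and the list median as a black bar. The partner, target, kinase and regulator medians lie between -0.086 and 0.035, and the early response median at 0.31.

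Genes whose levels over the 6 clones were most like those of each member were ranked by Pearson r of normalized log2 values among 8511 genes above background on all arrays. The r values describe 6 arrays in 2 groups and include the step between the groups. For Junb they were Ttl (r = 0.99), Ube2j1 (0.98) and Ulk3 (0.98), with log2 differences of 0.28, 0.17 and 0.56. For Jun they were Septin11, Egr1 and Srp54a (0.99 each), and for Fosl2 Slc1a5, Limk2 (0.99 each) and Tdrkh (0.98). For Fos they were Gpr137 (0.99), Wdr90 (0.98) and Osr1 (0.98), for Fosb C2cd2l (0.98), Akr1b8 (0.97) and Unc45a (0.97), and for Jund Slc3a2, Saraf (0.98 each) and Stxbp4 (0.96). Egr1 was the 1 gene of the fixed lists among these 18.

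The share of probes above background was 36.9% to 39.8% per array, and array means were 616 to 735. Of 9 fibroblast markers, 9 were above the limit on all 6 arrays. The defining markers Epcam, Ptprc, Pecam1, Myod1 and Sox10 of other cell types were below it on every array. The summed intensity of the fibroblast markers was 39532 to 42528 in control and 43314 to 53138 in FEAT clones, and its part in the differences of the Jun and Fos genes was not tested. The sum was 408 to 448 against 400.3 to 438 for 5 epithelial markers, 765 to 901 against 637 to 911 for 3 leukocyte markers with a probe, 323 to 360 against 362 to 385 for 4 endothelial, 362 to 382 against 377 to 391 for 4 muscle and 285 to 310 against 301 to 331 for 4 neural markers. Above the limit on all 6 arrays were 1 epithelial, 1 leukocyte and 1 muscle marker, Cdh1, Cd14 and Des, while Myog was above it on 4 arrays and Tek on 1.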

How the data were processed

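RNA of 6 clones was hybridised to 1 Illumina bead array each, per the labels' protocols. The deposited values were linear probe intensities, not background-subtracted and with no detection p in the tables used here. The submitters' processing notes name BeadStudio, and no version or further step is given in the sources used here. A value table deposited for the whole series repeats these intensities times 1 factor per array (0.925 to 1.10) and served as an alternative. It was quantile-normalized without normexp, so it repeats the setting without normexp and is no separate check.

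With R 4.3.3 and limma 3.58.1, normexp was fitted to the signals (offset 16), followed by quantile normalization and log2. Dim probes are drawn apart by normexp. The top 60% of probes by mean, 27169, were tested with lmFit and eBayes, two-sided, with Benjamini-Hochberg adjustment over all of them at 0.05. The planned detection filter needs detection p and was not used. Log2 differences are FEAT minus control, intensities are as deposited, and the tested probe with the highest mean stands for its gene. An exact permutation test of 3 against 3 cannot go below p = 0.1. The background limit of an array was 3 SDs (of values under the mode) above the mode of its log2 intensities, a rule taken over from earlier work on these data.

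Of the probes, 34885 had 1 gene symbol, 18 several and 10378 none. The members and gene lists were chosen with earlier results of these data known, so counts within them are no independent evidence. Named are all members, the called genes and the 4 smallest p of each list, and the 3 genes most like each member. Alternatives covered background correction, scaling, filters, variance models and each clone left out. The steps were tested on simulated data of 27169 probes, with 50 probes changed at each fold. Called in the right direction were 16% at 1.5-fold, 68% at 2-fold, 90% at 3-fold and 96% at 4-fold. A missing call therefore does not show that a gene was unchanged.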

Additional observations from a re-analysis of the deposited data

How the results depend on the processing

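The number of called probes was 38 to 68 across the other settings (50 in the main one) and 0 to 158 with 1 clone left out. Without control 1 limma called 0 probes, with 1916 at an unadjusted p under 0.05, and without control 2 it called 158. Member probes called were 2 with median scaling, array weights or a trended robust variance, and 0 to 2 with a clone left out. AP-1 targets called were 2 with no normexp, an offset of 50, median scaling, the deposited value table, all probes or array weights, 3 with the trended variance, and 0 to 2 with a clone left out. Early response genes called were 0 to 4 with a clone left out. Differences that changed sign were those of Fosb (-0.43 to 0.038 over the omissions), a dim Fosl2 probe (-0.25 to 0.021), Jund (-0.12 to 0.35, also -0.0071 without control 3) and Crem (-0.00035 to 0.19), none of which was called in any setting run; the cause was not tested. Of 389 other values of named probes, 350 kept direction and side of the threshold, 20 lost and 14 gained a call, and 5 turned. The lists of partners, regulators and kinases kept 0 calls in every setting run. No paired analysis was possible because the groups share only 1 clone number, which names unrelated lines. Dim probes (Fos, Fosb) lie near background, which limits their differences.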
